A study of Mus musculus with 12 samples.

Results

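The genes of the voltage-gated sodium and calcium channels were examined in the cortex of mice that had drunk ethanol. They were taken from the deposited count table by symbol, as the Scn genes that carry a number and the letter a or b and all Cacn genes, without opposite-strand transcripts. The rule gave 40 of the 33024 symbols in the table, of which 20 encode pore-forming subunits and 20 encode auxiliary subunits. The 12 animals were C57BL/6 mice of Arm #2, and 7 were controls (labelled Vehicle) and 5 were ethanol-administered mice (labelled EtOH). All were wild type. From 30 days of age, the ethanol-administered mice could choose each night for 12 h between a bottle of water and a bottle of 20% (v/v) ethanol, the 2BC-DID paradigm of binge-like drinking. Both bottles of the controls held water. After 35 such nights and 14 days without ethanol came the behavioural tests of this arm. The animals were perfused with saline before the cortex was taken.

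Voltage-gated sodium channels open within a fraction of a millisecond of depolarization and carry the upstroke of the action potential. Each has 1 large pore-forming α subunit, and small β subunits with a single membrane span adjust its gating and its place in the membrane. Voltage-gated calcium channels turn the same depolarization into calcium entry, which releases transmitter at terminals (P/Q, N and R types), drives gene expression and dendritic signals (L type) or shapes burst firing close to rest (T type). Their α2δ and β subunits bring the pore to the membrane. Most γ subunits of the brain serve instead as transmembrane AMPA receptor regulatory proteins (TARPs), partners of a glutamate receptor.

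The libraries held between 31768079 and 42183031 counts, and each group held 1 deeper library, that of control mouse 5 and that of ethanol-administered mouse 1. Levels are given in CPM, which are counts scaled to a common library size with TMM factors, and 3 counts amounted to between 0.0711 and 0.0944 CPM. Markers of cortical excitatory neurons (8 genes, 1 called higher and 1 lower) summed to 2376 to 2865 CPM in the controls and to 2314 to 2876 CPM in the ethanol-administered mice. The libraries differed along the group line in markers of neighbouring regions and of some cell types. All 15 striatal markers were called lower in the ethanol-administered mice, with sums of 1369 to 3065 CPM in the controls and 393 to 508 CPM in the ethanol-administered mice. Of 10 hippocampal markers, 9 were called higher, and their sum lay between 59.6 and 69.8 CPM in the controls and between 173 and 228 CPM in the ethanol-administered mice. Choroid plexus markers (5 of 7 called higher) reached from 8.27 to 22 CPM and from 11.9 to 1009 CPM, respectively. For these markers, ethanol-administered mice 2 and 5 (21.87 and 11.92 CPM) lay within the range of the controls. In the lists for thalamus, cerebellum, neurons, oligodendrocytes, their precursors, astrocytes, microglia and endothelial cells, 0 to 2 genes each were called. Microglial sums did not overlap (277 to 313 CPM in the controls and 234 to 255 CPM in the ethanol-administered mice), and oligodendrocyte sums ran from 4302 to 5723 CPM and from 2886 to 5172 CPM. The part of these lists in the channel genes was not tested. No marker of any list was at 0 in all 12 mice. In tissue of this kind, fewer cells of a type and less RNA per cell cannot be told apart, and a difference in the tissue taken cannot be told apart from the treatment.

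Of the 40 channel genes, 37 passed the expression filter and were tested among 16059 genes. A gene was called when edgeR's quasi-likelihood test gave an adjusted p (Benjamini-Hochberg over all genes tested) under 0.05 and the log2 fold change, ethanol-administered against control mice, exceeded 0.5 in size. The genes called lower all encode auxiliary subunits, namely the sodium channel β subunit gene Scn4b, the TARP genes Cacng4 and Cacng5 and the α2δ gene Cacna2d2. The genes called higher were Cacna1e, which encodes the pore of R-type calcium channels, and the sodium channel β subunit gene Scn3b. Of the 37 tested channel genes, 4 were thus called lower and 2 higher. Of all genes tested, 4.09% were called lower and 4.2% higher, that is, 8.29% in either direction. A further 13 of the 37 had an adjusted p under 0.05 and a change smaller than the minimum, and 18 had neither. These 13 were a larger share than the 15.4% of all genes tested with such values. Without the minimum, 8 channel genes were higher (21.6%, where all genes gave 12.1%) and 11 were lower (29.7%, where all genes gave 11.6%). Every ethanol-administered mouse lay below every control for 4 of the 37 genes (10.8%, against 4.96% of all genes) and above every control for 2 (5.41%, against 4.84%). The median size of the log2 fold change was 0.21 over the channel genes and 0.15 over all genes tested.

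**Figure D1:**
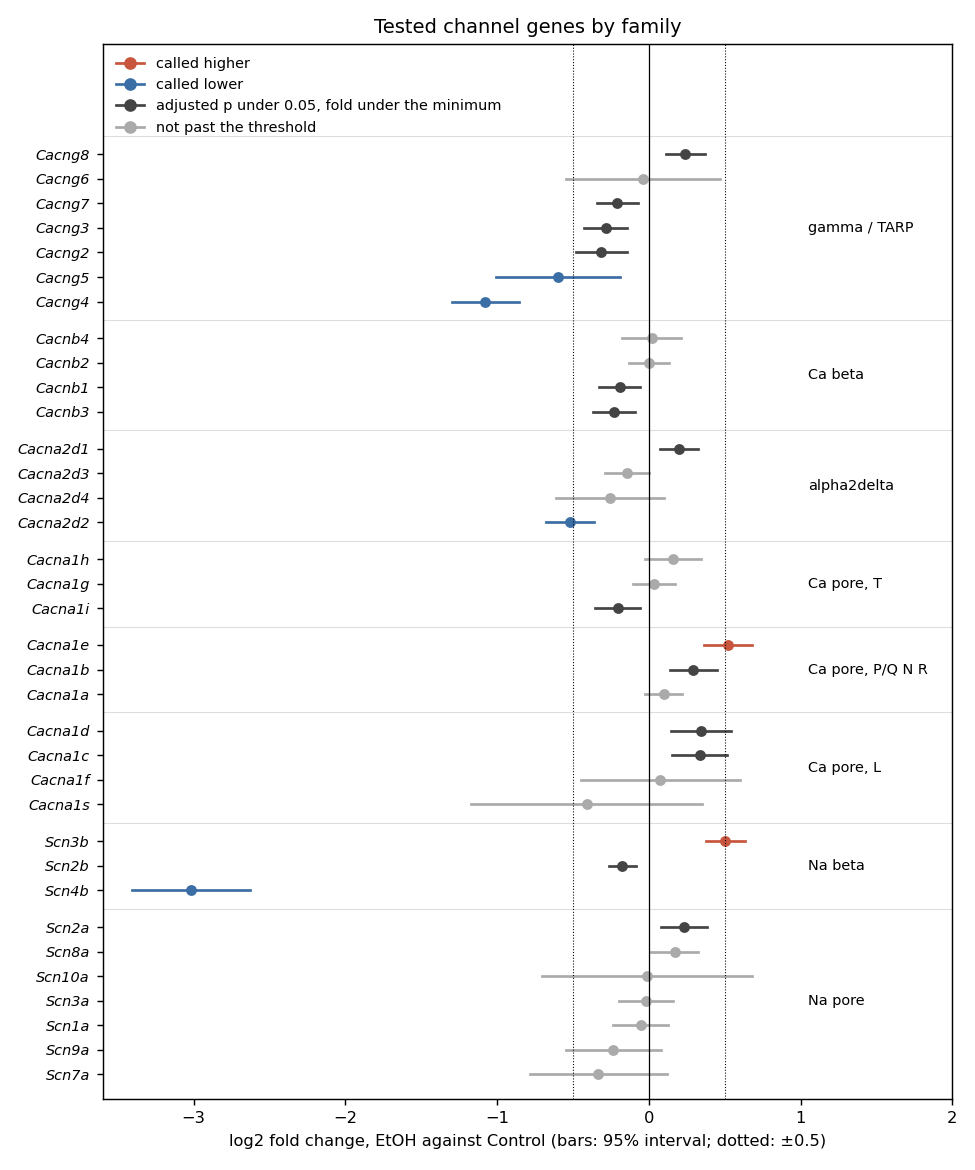
Log2 fold change of 35 of the 37 tested channel genes, ethanol-administered (EtOH, n = 5) against control mice (n = 7), grouped by family, with bars for the 95% confidence interval and dotted lines at the fold minimum of 0.5 in either direction. Scn4b lay at -3.02, apart from the other genes, which lay between -1.08 and 0.52.

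Promoter sequences are shown for 3 of the called genes, the auxiliary subunit genes Scn4b and Cacna2d2 from the lower side and the pore gene Cacna1e from the higher side, so that the start regions of genes that moved in opposite directions can be read side by side. They run from 250 bases before to 50 bases after a RefSeq gene start on GRCm38.p6, 5′ to 3′ on the strand of the gene, and RefSeq's starts can lie elsewhere than those of the annotation used for gene positions. Capitals mark the letters of a GC box (GGGCGG) or a CCAAT box (CCAAT), each read on both strands, and TATAAA was searched as well.
Scn4b, chr9:45138374-45138673, + strand: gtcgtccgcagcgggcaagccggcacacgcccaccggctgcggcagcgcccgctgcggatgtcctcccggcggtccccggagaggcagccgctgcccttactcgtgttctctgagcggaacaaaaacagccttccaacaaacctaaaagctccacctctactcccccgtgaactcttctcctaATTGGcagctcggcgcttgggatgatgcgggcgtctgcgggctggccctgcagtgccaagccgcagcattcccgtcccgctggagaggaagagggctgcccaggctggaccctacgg
Cacna2d2, chr9:107399630-107399929, + strand: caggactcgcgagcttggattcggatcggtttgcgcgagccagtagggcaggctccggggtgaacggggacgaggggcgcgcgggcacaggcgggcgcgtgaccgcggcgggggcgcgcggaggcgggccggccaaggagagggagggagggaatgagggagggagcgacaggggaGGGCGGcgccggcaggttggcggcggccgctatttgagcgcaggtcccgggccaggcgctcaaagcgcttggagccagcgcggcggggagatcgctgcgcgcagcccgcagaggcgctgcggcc
Cacna1e, chr1:154725871-154726170, - strand: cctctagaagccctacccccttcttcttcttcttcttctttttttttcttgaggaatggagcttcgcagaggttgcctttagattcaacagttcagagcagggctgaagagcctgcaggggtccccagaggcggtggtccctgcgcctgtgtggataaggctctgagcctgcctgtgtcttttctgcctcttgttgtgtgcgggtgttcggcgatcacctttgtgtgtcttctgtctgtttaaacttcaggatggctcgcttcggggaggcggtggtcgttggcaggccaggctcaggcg
The Scn4b window held 1 CCAAT box, written as its reverse complement, and 66.3% G and C. The Cacna2d2 window held 1 GC box and 75.7% G and C, and that of Cacna1e held none of the 3 motifs and 55.3% G and C. The table held 41 promoters of 30 channel genes. Of these promoters, 16 held a GC box, 10 a CCAAT box and 2 TATAAA, where 35.7%, 37.4% and 13.6% of all 32851 promoters did. A match is a run of letters only, and nothing is read from it about a factor.

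Among the sodium channel β subunits, Scn4b showed the largest change of the 37 tested channel genes. Its protein provides the blocking particle of resurgent sodium current and is known to be abundant in striatal projection neurons and cerebellar Purkinje cells. The gene lies on chromosome 9 of GRCm39 from 45049595 to 45065452 on the + strand. The controls had between 236 and 395 CPM (median 328). The ethanol-administered mice had 35.4, 59.2, 27.1, 29.9 and 45.2 CPM. The groups did not overlap, and the lowest control was several times the highest ethanol-administered mouse. The means were 319 ± 57.9 CPM (SD, n = 7) and 39.4 ± 13.1 CPM (SD, n = 5), so that Scn4b fell by 3.02 on the log2 scale (SE 0.18, adjusted p = 6.998e-09 by edgeR), an 8.1-fold lower level. Leaving out single mice gave values from -3.22 to -2.91. An annotated gene on the opposite strand shares 107 bases with its exons. Cerebellar markers (1 of 6 called lower) summed to 26.3 to 40.1 CPM in the controls and to 15.1 to 22.5 CPM in the ethanol-administered mice, and their part in the Scn4b value was not tested.

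Scn3b and Scn2b moved far less. Scn3b, whose protein associates non-covalently with the pore subunit, had between 113 and 138 CPM in the controls (median 129) and 179, 170, 197, 184 and 166 CPM in the ethanol-administered mice. Every ethanol-administered mouse lay above every control. The means of 126 ± 9.95 (SD, n = 7) and 179 ± 12.3 CPM (SD, n = 5) gave a log2 change of 0.50 ± 0.06 (SE, adjusted p = 1.481e-05 by edgeR). This value sat at the fold minimum and dropped under it, to between 0.47 and 0.497, with control mouse 1, 3 or 7 or ethanol-administered mouse 3 or 4 left out, while the edgeR adjusted p was at most 9.085e-05 in these fits. Scn2b, the β subunit joined to the pore by a disulphide bond, fell from 254 ± 7.26 CPM (SD, n = 7) to 225 ± 6.43 CPM (SD, n = 5), that is, a log2 change of -0.17 (adjusted p = 0.0073 by edgeR), and all ethanol-administered mice were below all controls. Scn2b and Scn4b are neighbours on the same strand, 8.2 kb apart, and their log2 fold changes were -0.17 and -3.02.

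**Figure D2:**
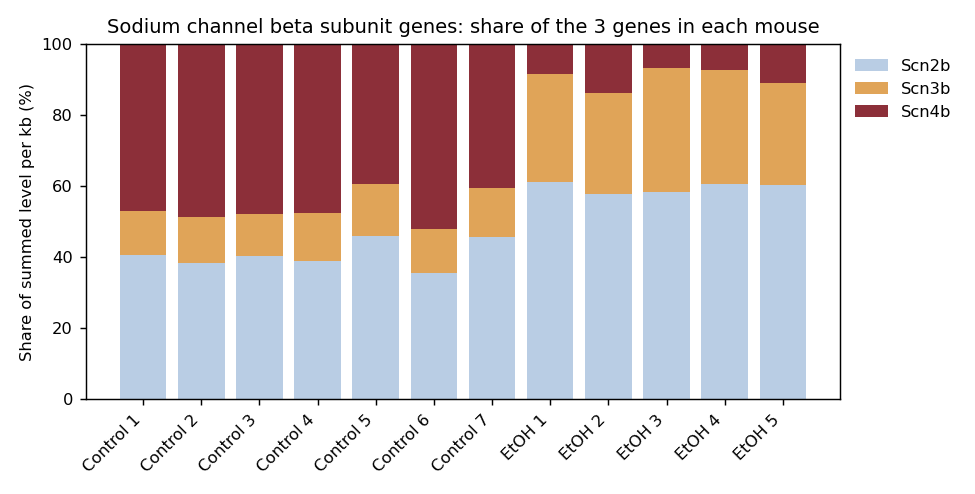
Share of Scn2b, Scn3b and Scn4b in the summed level of these 3 genes, in CPM per kb of exon, for each of the 7 control and 5 ethanol-administered (EtOH) mice. Scn4b made up 39.5% to 52% of the sum in the controls and 6.74% to 13.9% in the ethanol-administered mice.

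Expressed per kb of exon, Scn2b, Scn3b and Scn4b together had 135 ± 12.4 CPM per kb in the controls (SD, n = 7) and 81.1 ± 1.86 CPM per kb in the ethanol-administered mice (SD, n = 5). The Scn4b share of that sum was 46.2 ± 4.51% and 9.51 ± 2.95%. The other shares were larger in the ethanol-administered mice, with 40.7 ± 3.82% and 59.6 ± 1.42% for Scn2b and 13.1 ± 0.943% and 30.9 ± 2.66% for Scn3b. As shares add up to a fixed whole, a smaller Scn4b share enlarges the others, and in CPM Scn3b rose while Scn2b fell.

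**Figure D3:**
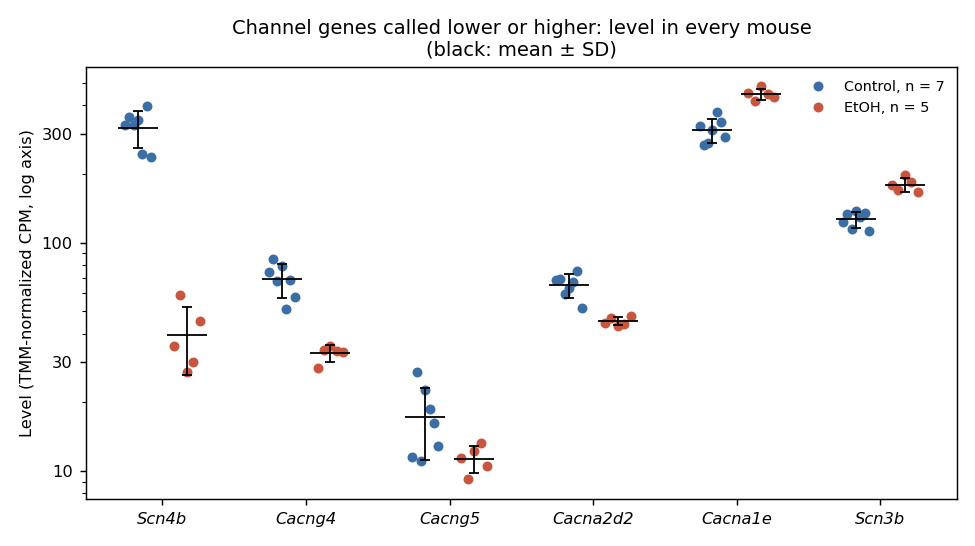
Level of the 6 called channel genes in each mouse, in TMM-normalised CPM on a log axis, with black bars for the mean ± SD of 7 control and 5 ethanol-administered (EtOH) mice. The groups were apart for Scn4b, Cacng4, Cacna2d2, Cacna1e and Scn3b and overlapped for Cacng5.

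The γ family held the second largest change. Cacng4, a type I TARP gene on chromosome 11 (107623183 to 107685662, - strand), had between 51.2 and 84.8 CPM in the controls (median 68.6). In the ethanol-administered mice it had 28.3, 34.0, 35.2, 33.5 and 33.1 CPM. No ethanol-administered mouse reached the lowest control. Cacng4 fell from 69.2 ± 11.7 CPM (SD, n = 7) to 32.8 ± 2.65 CPM (SD, n = 5), which is -1.08 on the log2 scale (SE 0.11, adjusted p = 1.225e-06 by edgeR), and leaving out single mice gave -1.15 to -1.02. Its exons share 605 bases with annotated genes of the opposite strand. Cacng5, a type II TARP gene 79.8 kb from Cacng4 on the same strand, had 11.02 to 27.1 CPM in the controls (median 16.3) and 11.5, 9.21, 12.2, 13.3 and 10.5 CPM in the ethanol-administered mice. The groups overlapped, since 3 of the 5 ethanol-administered mice lay within the range of the controls, whose values were widely spread. Its log2 change was -0.60 ± 0.19 (SE, adjusted p = 0.0322 by edgeR). The call was lost without control mouse 2 (-0.46, adjusted p = 0.0629 by edgeR), control mouse 4 (-0.52, adjusted p = 0.0701 by edgeR) or ethanol-administered mouse 1, 2 or 5 (-0.60, -0.54 and -0.58).

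Of the remaining TARP genes, 4 passed the test below the fold minimum. Cacng2, which encodes stargazin, fell by 0.31 on the log2 scale (SE 0.08, adjusted p = 0.00936 by edgeR) and Cacng3, another type I TARP gene, fell by 0.28 (SE 0.07, adjusted p = 0.00597 by edgeR). Cacng7, a type II TARP gene and the member with the highest level per length (58.7 CPM per kb in the controls), fell by 0.21 (SE 0.06, adjusted p = 0.025 by edgeR), with an adjusted p of at most 0.0809 and over 0.05 without control mouse 4 or ethanol-administered mouse 1 or 4. Cacng8, the type I TARP known for its strong expression in hippocampus, went the other way, from 63.7 ± 4.62 CPM (SD, n = 7) to 75.3 ± 5.63 CPM (SD, n = 5), that is, a log2 change of 0.24 ± 0.06 (SE, adjusted p = 0.00931 by edgeR). Thus 6 of 7 tested γ genes had a negative log2 fold change (median -0.28). Cacng6, a γ gene of muscle that lies 6.0 kb from Cacng8, was near 1.3 CPM in both groups. The γ genes summed to 167 ± 11.1 CPM per kb in the controls (SD, n = 7) and to 141 ± 4.89 CPM per kb in the ethanol-administered mice (SD, n = 5), and the share of Cacng4 was 9.99 ± 1.21% and 5.65 ± 0.393%. The share of Cacng8 was 13.0 ± 1.62% and 18.1 ± 1.53%.

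Of the α2δ genes, Cacna2d2 had between 52.0 and 75.3 CPM in the controls (median 67.1) and 44.6, 46.8, 43.4, 44.2 and 47.7 CPM in the ethanol-administered mice. Its protein, like that of Cacna2d1, binds the drug gabapentin. The groups did not overlap, with the nearest mice at 47.7 and 52.0 CPM. The gene, on chromosome 9 from 107276811 to 107406543, fell from 65.0 ± 7.59 CPM (SD, n = 7) to 45.3 ± 1.84 CPM (SD, n = 5), that is, a log2 change of -0.52 ± 0.08 (SE, adjusted p = 8.894e-05 by edgeR). Without control mouse 6 the change was -0.48 and without the deeper library of each group it was -0.499, both short of the fold minimum, with edgeR adjusted p values of 0.000163 and 0.000815. Cacna2d1, the α2δ gene with the highest level per length (10.8 CPM per kb in the controls), moved in the other direction, with a log2 change of 0.20 ± 0.06 (SE, adjusted p = 0.0238 by edgeR), and its adjusted p exceeded 0.05 without ethanol-administered mouse 1 or 3 (at most 0.067). Cacna2d3 had a log2 fold change of -0.14 (95% interval -0.29 to 0.0011), and Cacna2d4, an α2δ gene of the retina, was below 4 CPM in all mice.

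The cytoplasmic calcium channel β subunits changed little. Cacnb3, the most abundant of them per length with 67.1 CPM per kb in the controls, fell by 0.23 on the log2 scale (SE 0.07, adjusted p = 0.0171 by edgeR, and 0.0568 without ethanol-administered mouse 1). Cacnb1 fell by 0.19 (SE 0.06, adjusted p = 0.0356 by edgeR), a change that missed the threshold (adjusted p up to 0.0749) in 6 of 12 fits that left out one mouse, those without control mouse 1, 4 or 7 or ethanol-administered mouse 1, 2 or 3. The values of Cacnb2 and Cacnb4 were 0.0023 and 0.02, with 95% intervals of -0.13 to 0.13 and -0.17 to 0.21.

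Among the calcium channel pores, Cacna1e alone passed both thresholds. The gene lies on chromosome 1 from 154266477 to 154760247. The controls had between 266 and 373 CPM (median 312), and the ethanol-administered mice had 453, 415, 483, 446 and 435 CPM. All ethanol-administered mice were above the highest control. Cacna1e rose from 311 ± 38.0 CPM (SD, n = 7) to 446 ± 25.3 CPM (SD, n = 5), that is, a log2 change of 0.52 ± 0.07 (SE, adjusted p = 7.624e-05 by edgeR). The change was 0.49 without control mouse 2, without control mouse 3 or without ethanol-administered mouse 3, under the fold minimum, with an edgeR adjusted p of at most 0.000382. Its share of the summed level of the calcium pore genes per kb was 14.6 ± 0.871% in the controls and 18.6 ± 1.17% in the ethanol-administered mice.

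The other presynaptic pore genes gave smaller values. Cacna1b, the N-type pore and the most abundant calcium pore gene per length (15.3 CPM per kb in the controls), rose from 153 ± 16.2 CPM (SD, n = 7) to 188 ± 14.4 CPM (SD, n = 5), with a log2 change of 0.29 ± 0.07 (SE, adjusted p = 0.00822 by edgeR). Cacna1a, the P/Q-type pore of most fast central synapses, had a log2 fold change of 0.10 (95% interval -0.03 to 0.22, adjusted p = 0.243 by edgeR). Both neuronal L-type pore genes rose below the fold minimum, Cacna1c by 0.34 (SE 0.09, adjusted p = 0.00879 by edgeR) and Cacna1d by 0.34 (SE 0.09, adjusted p = 0.0142 by edgeR). The level per length was 4.39 CPM per kb for Cacna1d and 4.30 for Cacna1c in the controls. Cacna1s of skeletal muscle and Cacna1f of the retina stayed under 1.2 CPM in all mice. Of the T-type pore genes, Cacna1i, the most abundant of them per length (14.6 CPM per kb), fell by 0.20 (SE 0.07, adjusted p = 0.0429 by edgeR), a value that passed the threshold in 5 of 12 fits with one mouse left out and missed it (up to 0.117) without control mouse 1, 4, 5, 6 or 7 or ethanol-administered mouse 1 or 3. Its share among the calcium pore genes was 17.7 ± 0.481% in the controls and 13.5 ± 1.19% in the ethanol-administered mice. Cacna1g and Cacna1h had log2 fold changes of 0.04 (95% interval -0.10 to 0.17) and 0.16 (95% interval -0.02 to 0.35).

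No sodium channel pore gene was called. Scn8a, the pore of mature axon initial segments and nodes of Ranvier, had the highest level per length of them, with 28.6 CPM per kb in the controls and 32.1 in the ethanol-administered mice (log2 fold change 0.17, 95% interval 0.01 to 0.32, adjusted p = 0.104 by edgeR). Scn2a, the main pore of excitatory neurons early in life, rose from 355 ± 41.3 CPM (SD, n = 7) to 417 ± 26.0 CPM (SD, n = 5), with a log2 change of 0.23 ± 0.07 (SE, adjusted p = 0.0276 by edgeR). Its threshold was missed without control mouse 1, 2, 3 or 4 or ethanol-administered mouse 1, with an edgeR adjusted p of at most 0.076. Scn1a, the pore prominent in fast-spiking inhibitory interneurons, had 158 ± 13.5 CPM (SD, n = 7) and 152 ± 24.0 CPM (SD, n = 5), that is, a log2 change of -0.05 with an interval of -0.23 to 0.13. Markers of inhibitory interneurons (3 of 8 called lower) summed to 1118 to 1420 CPM in the controls and to 888 to 995 CPM in the ethanol-administered mice. This list includes Gad1, Gad2 and Slc32a1, general markers of GABA neurons, and the part of striatal tissue in its sum was not tested. Scn3a, the mainly embryonic pore, was at 52.2 ± 7.46 and 51.6 ± 2.69 CPM. In the controls Scn8a, Scn2a and Scn1a made up 38.3%, 36.6% and 18.4% of the summed level per kb of 9 sodium pore genes, and in the ethanol-administered mice 39.1%, 39% and 16%.

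The channels of other tissues were low. The sodium sensor Scn7a and the sensory neuron channel Scn9a lay between 2.19 and 6.50 CPM in all 12 mice, and Scn10a of sensory neurons lay between 0.244 and 0.957 CPM. None of them passed the test, with 95% intervals of the log2 fold change from -0.79 to 0.12 for Scn7a, from -0.55 to 0.08 for Scn9a and from -0.70 to 0.68 for Scn10a. Scn4a of skeletal muscle (at most 4 counts in any mouse), Scn11a of sensory neurons (at most 18) and Cacng1 of skeletal muscle (at most 10) failed the expression filter, with levels of up to 0.124, 0.546 and 0.316 CPM.

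Read by role, pore and auxiliary subunits had different medians. Of 18 tested pore genes, 10 had a positive log2 fold change and the median was 0.06 (range -0.41 to 0.52), with 1 called higher, 0 lower and 5 more past the adjusted p alone. Of 19 tested auxiliary genes, 5 had a positive value and the median was -0.19 (range -3.02 to 0.50), with 1 called higher, 4 lower and 8 more past the adjusted p alone. Over all tested genes the median was 0.00, 50.01% had a positive value, 4.2% were called higher and 4.09% lower, and 15.4% passed the adjusted p alone. The 2 sets also differed in length. Summed exon length had a median of 11946 bases in the pore genes (7447 to 25632) and of 5082 bases in the auxiliary genes (2767 to 22094), and 16 of the 18 pore genes fell in the longest quartile of all tested genes. Log2 fold changes moved with length over all genes, with medians of -0.08, -0.04, 0.01 and 0.07 from the shortest to the longest quartile. Across genes, Spearman's correlation of length and log2 fold change was 0.206 over 15631 genes with an annotated length and 0.58 over the 37 channel genes, all measured in the same 12 libraries. Neither the difference between pore and auxiliary genes nor the part of length in it was tested.

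**Figure D4:**
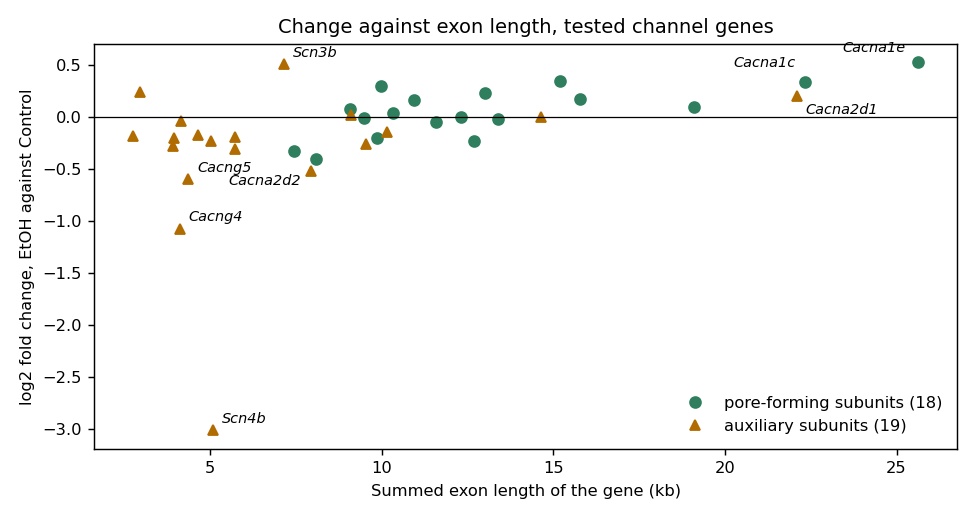
Log2 fold change, ethanol-administered (EtOH) against control mice, of the 37 tested channel genes against their summed exon length in kb, with circles for 18 pore-forming and triangles for 19 auxiliary subunit genes. The longest gene, Cacna1e, lay at 0.52, and 16 of the pore genes were in the longest quartile of all tested genes, which began at 9088 bases.

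A relation to length was also seen within the controls for the deeper library, the only control compared in this way. The log2 level of the deeper control mouse 5 minus the mean of the other controls correlated with exon length at 0.596 over the 37 channel genes and at 0.191 over all genes (Spearman, across genes). Among 12 pore genes above 10 CPM, control mouse 5 was the highest control for 9, and control mouse 2 was the lowest for 10. Among 17 auxiliary genes above 10 CPM, control mouse 5 was the highest for 4 and the lowest for 6. Control mouse 2 was the highest for 3 of them and the lowest for 2. These counts were not set against all genes. For ethanol-administered mouse 1 against the others of its group the values were 0.154 and 0.0938. Without both deeper libraries, the median log2 fold change was 0.10 for the pore genes and -0.20 for the auxiliary genes, and 7 pore genes were higher and 0 lower at an edgeR adjusted p under 0.05, against 3 higher and 9 lower auxiliary genes. In the same fit, 13.5% of all 16093 genes tested were higher and 11.5% lower.

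Since the groups differed in striatal markers, the called genes were also set against the striatal marker sum within the 7 controls, all of which had water only. Scn4b followed the sum, with Pearson's r = 0.834 (exact permutation p = 0.0183, adjusted 0.0714 over the 6 genes) and Spearman's rho = 0.964 (exact permutation p = 0.00278, adjusted 0.0167). Without control mice 2 and 7, those farthest from the median sum, r was 0.854. Cacng4 had r = 0.816 (exact permutation p = 0.0246, adjusted 0.0714) and rho = 0.857 (exact permutation p = 0.0238, adjusted 0.0714), and r = 0.764 without the 2 mice. Cacna2d2 had r = 0.76 (exact permutation p = 0.0476, adjusted 0.0714) and rho = 0.786 (exact permutation p = 0.048, adjusted 0.096), and r = 0.49 without the 2 mice. The gene called higher, Scn3b, also had a positive r of 0.758 (exact permutation p = 0.0413, adjusted 0.0714), with rho = 0.75 (exact permutation p = 0.0663, adjusted 0.0994) and r = 0.614 without the 2 mice. Values were r = 0.653 and rho = 0.536 for Cacng5 (exact permutation p = 0.11 and 0.236, adjusted 0.132 and 0.283), with r = 0.271 without the 2 mice, and r = -0.126 and rho = -0.214 for Cacna1e (exact permutation p = 0.798 and 0.662), with r = -0.0897 without them. Without the 2 mice, which leaves 5, the unadjusted exact permutation p of r was 0.108 for Cacng4, 0.408 for Cacna2d2 and 0.292 for Scn3b. A p over 0.05 with 5 mice does not show that a relation is lost. Only the rho of Scn4b passed after adjustment. The part of striatal or hippocampal tissue in the group differences was not tested.

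**Figure D5:**
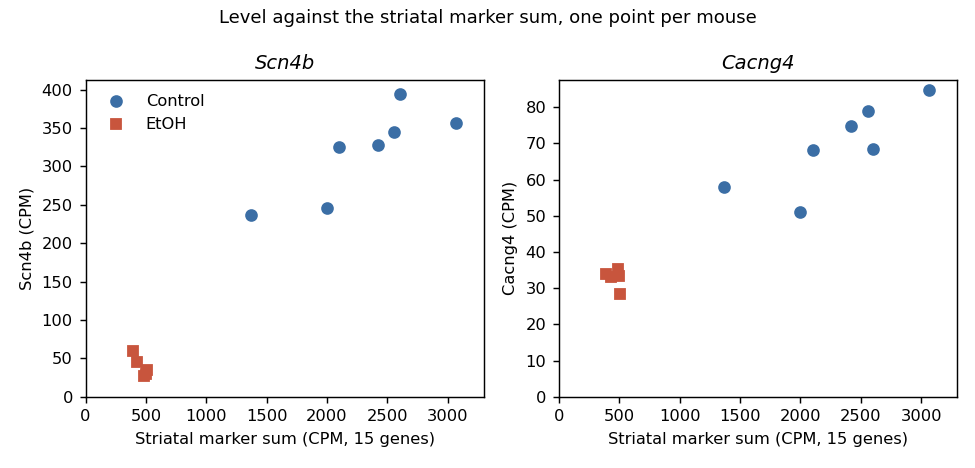
Level of Scn4b and Cacng4 in CPM against the summed level of 15 striatal marker genes in CPM, 1 point per mouse, for 7 control and 5 ethanol-administered (EtOH) mice. The sum lay between 1369 and 3065 CPM in the controls and between 393 and 508 CPM in the ethanol-administered mice, and no sum was shared by the groups.

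Genes that work with these channels were counted from 5 lists holding 44 genes, all of which were tested. Of these, 2 were called higher and 3 lower, where 4.2% and 4.09% of all genes tested were. A further 15 of the 44 passed the adjusted p alone, a larger share than the 15.4% of all genes. The median log2 fold change was 0.14. Of the 44 genes, 26 were in the longest quartile of exon length, where the median over all genes was 0.07, and the part of length in these values was not tested. Among the AMPA receptor partners of the TARPs (11 genes, 1 higher and 1 lower), Shisa6, an auxiliary subunit that holds AMPA receptors at synapses, rose from 17.4 ± 1.52 CPM (SD, n = 7) to 77.2 ± 22.1 CPM (SD, n = 5), that is, a log2 change of 2.15 ± 0.13 (SE, adjusted p = 8.2e-09 by edgeR). Gsg1l, an auxiliary subunit that slows their recovery, fell by 0.73 (SE 0.09, adjusted p = 1.798e-05 by edgeR). Gria1, which encodes an AMPA receptor pore subunit, had a log2 fold change of 0.44 with all ethanol-administered mice above all controls. Among the calcium channel partners (11 genes, 0 higher and 2 lower), Stac2, an adaptor of L-type channels, fell by 0.81 (SE 0.12, adjusted p = 8.486e-05 by edgeR) and Rem2, a small GTPase that restrains calcium channels, fell by 1.0 (SE 0.14, adjusted p = 4.918e-05 by edgeR). Both had every ethanol-administered mouse below every control.

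The intracellular calcium release channels (6 genes) gave 1 call, Ryr2, with a log2 change of 0.53 ± 0.11 (SE, adjusted p = 0.00215 by edgeR) and overlapping groups, while below the minimum Ryr1 and Itpr1 fell by 0.45 and 0.42 and Itpr2 rose by 0.24. None of the 11 sodium channel partners and none of the 5 genes of the sodium leak channel complex was called. Of the former, Fgf13, Ank2, Ank3 and Nrcam rose and Nedd4l, a ubiquitin ligase that removes sodium channels from the membrane, fell past the adjusted p alone. All 5 genes of the leak channel complex had a positive log2 fold change (0.13 to 0.46), and 3 of them passed the adjusted p alone, where 50.01% of all tested genes were positive and 12.1% were higher at an adjusted p under 0.05. In this complex, 3 of the 5 genes were in the longest quartile of exon length. Ank3 encodes ankyrin-G, the scaffold of the axon initial segment, and its log2 fold change was 0.29 (adjusted p = 0.02 by edgeR).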

How the data were processed

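RNA of mouse cortex was sequenced by BGI. Per the labels and the paper's methods, the authors checked reads with FastQC 0.11.9, aligned them to GRCm39 with STAR and Gencode release 28, and counted them per gene with featureCounts. Strand and multi-mapping settings are not given in the sources used here, so that genes whose exons overlap others (20 of the 40) are uncertain. Whether the mates of a read pair were counted once or separately is not given either, so that a count, a total or the floor of 3 counts may stand for reads or for pairs. The authors deposited expected counts per gene symbol without normalization. 61 symbols, none of them a channel gene, held values that were not whole, and counts were rounded.

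Genes kept by filterByExpr were compared with edgeR 4.0.16 (quasi-likelihood test, TMM factors from 0.982 to 1.02, Benjamini-Hochberg adjustment over all genes tested, R 4.3.3) in all 12 mice without covariates. The standard error is the log2 fold change divided by the square root of F. DESeq2 1.42.0 and limma 3.58.1 (voom), other factors, filters and fold minimums, each mouse left out, and the replicate number as a block were alternatives. Fits were tested on simulated data. Samples were taken as separate mice from their labels, and no 2 libraries of a group were alike within counting noise (chi-square of at least 7.88 for each degree of freedom). Positions and exon lengths are from Gencode release 39 of GRCm39. Intervals and floors cover 95% confidence and counting error, respectively. Channel genes with an adjusted p under 0.05, those highest per length in a family and those failing the filter are named by rule. The members, marker lists and partner lists were chosen with earlier results of these data known. Partner genes named below the fold minimum were chosen after their values were seen. Some channel genes that the rule selects are kept in the counts and are not reported here one by one.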

Additional observations from a re-analysis of the deposited data

Results flagged for a closer look

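In 74 comparisons of a channel gene or the total count within a group, the highest or lowest mouse stood far from the rest of its group in 11, where chance gives about 3.7 (about 1 group in 20). Among the controls, Cacna1b was lowest in mouse 2 (120 CPM, next 153). Control mouse 5 had the lowest Cacng7 (199.7 CPM, next 224). Control mouse 7 had the lowest Cacna1s (0.0962 CPM, next 0.564), and control mouse 4 had the highest Cacng6 (2.41 CPM, next 1.32). The last 2 genes rest on few counts. Among the ethanol-administered mice, mouse 1 had the lowest Cacng4 (28.3 CPM, next 33.1) and the highest Scn2a (463 CPM, next 416). Mouse 3 of that group had the lowest Scn8a (471.9 CPM, next 511) and the highest Scn9a (4.68 CPM, next 3.37), and mouse 5 had the lowest Scn3a (46.9 CPM, next 51.8). The total count of control mouse 5 was 40690226 (next 32356909) and that of ethanol-administered mouse 1 was 42183031 (next 33313165). Of the genes named here, Cacna1b, Cacng4, Cacng7 and Scn2a passed the test between the groups. Without control mouse 2, Cacna1b kept its side of the threshold, and without ethanol-administered mouse 1, so did Cacng4 while Scn2a did not.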

How the results depend on the processing

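The 4 channel genes called lower became 11 and the 2 called higher became 8 without a fold minimum, and 2 and 0 with a minimum of 1. Over all genes, 674 were higher and 657 lower, 1947 and 1863 without a minimum, and 242 and 282 with a minimum of 1. Leaving out the deeper library of each group left 2 channel genes lower (Scn4b and Cacng4). With each mouse left out in turn, 0 to 2 channel genes were higher and 3 to 4 lower, 576 to 783 genes of all were higher and 586 to 727 lower, and 4 to 6 partner genes were called, against 5. Without control mice 2 and 7, Pearson's r with the striatal sum in the controls was 0.764 for Cacng4, 0.49 for Cacna2d2 and 0.614 for Scn3b, with unadjusted exact permutation p of 0.108, 0.408 and 0.292, where the unadjusted p had been under 0.05 and the adjusted p had not. Scn4b and Cacng4 kept their calls in all 12 fits that left out one mouse and in all 9 other alternatives. For the 19 channel genes past the adjusted p, 351 of 399 gene and setting pairs kept the threshold, 48 lost it and 0 reversed, and the cause was not tested. limma voom did not call Cacng5 (-0.54, adjusted p = 0.0578). Halving and rounding all counts, added after seeing that even counts were more frequent among genes with few counts (74.8% at a mean of 1 to 10 counts), gave 620 and 607 genes and the same 2 and 4 channel counts.

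Control and ethanol-administered mice carry the same replicate numbers, but same-numbered mice did not deviate together (correlations from -0.108 to 0.0182, 0 ethanol-administered mice closest to their own number). This gave no sign that the numbers pair the mice, but it cannot exclude a weak pairing. With the replicate block, 1 channel gene was called higher, as Scn3b was at 0.49, and the edgeR adjusted p exceeded 0.05 for Cacna1i (0.0848), Cacnb1 (0.081), Cacng7 (0.0857) and Cacng8 (0.0701).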

Other observations

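Several channel genes are neighbours. Cacng7, Cacng8 and Cacng6 follow each other on chromosome 7, with gaps of 22.5 and 6.0 kb, and their log2 fold changes were -0.21, 0.24 and -0.04. On chromosome 11 Cacng4 (-1.08) lies between Cacng1, 15.8 kb away and too low to be tested, and Cacng5 (-0.60). On chromosome 2 Scn3a and Scn2a lie 53.1 kb apart on opposite strands, with values of -0.02 and 0.23, and Scn1a, Scn9a and Scn7a follow with -0.05, -0.23 and -0.33, none of the last 3 past the threshold. These are values side by side, and no test of a difference between neighbours was made.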
